A study of Mus musculus with 7 samples.

Results

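Chromatin accessibility was examined at 6 genes that encode transcription factors of tissue residency and effector function, namely Prdm1, Zfp683, Bhlhe40, Id2, Zeb2 and Ahr. The members were all regions of the deposited ATAC-seq table that overlapped the GENCODE gene body of one of these genes or the 10 kb on either side of it, in GRCm38/mm10 coordinates. This gave 77 of 113820 regions, of which 31 lay at Zeb2, 23 at Prdm1, 7 at Ahr, 6 at Bhlhe40, 6 at Id2 and 4 at Zfp683. Regions were taken by position alone, but the 6 genes were chosen with earlier results of these data known. The outermost member lay 9.08 kb from its gene, and the nearest region left out lay 10.4 kb away.

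The 7 libraries came from C57BL/6 reporter mice infected under the skin with 500 L3 larvae of Nippostrongylus brasiliensis, a nematode whose larvae migrate through the lung, and CD4+ T cells were sorted on day 8. LN IL-4+ cells (n = 2) were GFP+ cells of the mediastinal lymph node from IL-4-4get GFP reporter mice, and lung IL-4+ cells (n = 3) were GFP+ cells of the lung from the same reporter strain. Lung IFNγ+ cells (n = 2) were YFP+ cells of the lung from IFN-gamma-Great YFP reporter mice, so cytokine and reporter strain cannot be told apart in comparisons with them. The 4get reporter marks cells that can transcribe Il4 and does not measure secreted cytokine. Each library was made from 50000 cells of 1 experiment, the labels tie no library to a mouse, and p-values therefore measure the spread between libraries, which may in part be technical. Uninfected and reporter-negative cells were not analysed here.

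ATAC-seq counts the sites at which a transposase cuts accessible DNA. The values are log2 densities, that is, log2 of the normalized insertions per kilobase of region, with each library scaled to the same total (980681 to 980715 over all regions), so that a difference of 1 is a 2-fold change. In sorted populations, a larger share of cells with an open region and a wider opening in each cell cannot be told apart. Depth lay between 14005923 and 91681969 insertions per library, as rebuilt from tied values. In 3 libraries (replicates 2 and 3 of the lung IL-4+ cells and replicate 1 of the LN IL-4+ cells) the rebuilt counts spread less over regions, with an interquartile range of 1.65 to 1.74 on the log2 scale against 2.89 to 3.07 in the other 4. Differences within the narrow and within the wide libraries are therefore given beside the called regions. Both lung IFNγ+ libraries were wide, so no narrow value exists for comparisons with them.

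The sorted populations were checked against the accessibility of marker gene starts. All 7 CD4 T cell markers had a region at their start, with summed densities of 109 to 151 in LN IL-4+, 97.5 to 150 in lung IL-4+ and 94.3 to 95.3 in lung IFNγ+ libraries. These sums went with the spread of the libraries, at 140 to 151 in the narrow and 94.3 to 109 in the wide ones. The 3 Th2 markers with a start region (Gata3, Il1rl1 and Il13) summed to 73.9 to 82.6 in lung IL-4+ libraries, above the 49.8 to 53.0 of LN IL-4+ and the 47.1 to 52.9 of lung IFNγ+ libraries. Gata3 itself overlapped between LN IL-4+ (48.3 and 42.2) and lung IL-4+ libraries (44.2, 50.3 and 51.2), while Il1rl1 and Il13 did not. The 4 Th1 markers summed to 94.7 to 97.4 in lung IFNγ+ libraries, against 15.3 to 19.5 in LN IL-4+ and 25.9 to 35.9 in lung IL-4+ libraries. Ifng, Cxcr3 and Il12rb2 were each highest in lung IFNγ+ libraries. Tbx21 was not, at 5.22 and 5.39 there against 7.96 and 2.59 in LN IL-4+ and 3.25, 8.22 and 5.73 in lung IL-4+ libraries. All Tbx21 values above 5.39 came from narrow libraries. Within the wide ones, both lung IFNγ+ values exceeded the 2.59 and 3.25 of the IL-4+ populations. The 4 Tfh markers, Cxcr5, Bcl6, Pdcd1 and Il21, summed to 96.9 to 99.3 in LN IL-4+, 72.9 to 82.3 in lung IL-4+ and 92.7 to 93.3 in lung IFNγ+ libraries. This sum hides markers that went different ways. Cxcr5 was 19.6 and 12.1 in LN IL-4+ against 3.52 and 3.35 in lung IFNγ+ libraries, and Pdcd1 was slightly lower in the latter. Bcl6 was 51.5 and 48.4 in LN IL-4+ against 61.8 and 64.9 in lung IFNγ+ libraries, and Il21 overlapped between them. Foxp3, the regulatory T cell factor, had a start density of 27.2 to 35.6 across all libraries. The CD8 T cell marker Cd8b1 had 6.61 to 7.31 in LN IL-4+, 2.95 to 5.57 in lung IL-4+ and 3.94 to 4.09 in lung IFNγ+ libraries, and Cd8a had no start region. Of 3 NK cell markers Klrb1c and Eomes had one, with sums of 6.34 to 11.6 across all libraries. The macrophage and monocyte markers Csf1r, Lyz2, Adgre1 and Spi1 had no region at their start. Of 5 B and plasma cell markers only Pax5 had one, at 4.87 to 6.16 in LN IL-4+, 1.19 to 4.48 in lung IL-4+ and 0.898 to 1.43 in lung IFNγ+ libraries. Of 6 epithelial and endothelial markers 3 had a start region, with sums of 36.9 to 39.9 in LN IL-4+, 31.9 to 37.0 in lung IL-4+ and 28.1 to 29.6 in lung IFNγ+ libraries. The part of other cell types in the values at the 6 genes was not tested.

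T cells that settle in a tissue shut down the genes that let them leave and keep others that anchor them, and a small group of transcription factors directs this exchange. Prdm1 encodes Blimp-1 and Zfp683 encodes Hobit, related zinc finger repressors that act together in tissue-resident lymphocytes and silence egress genes. Bhlhe40 is a basic helix-loop-helix repressor that T cells need for full cytokine output, including in helminth infection. Id2 lacks a DNA-binding domain and holds E proteins away from DNA, which favours effector over follicular helper and memory fates, and Zeb2 is a zinc finger and homeodomain repressor that works with T-bet in terminal effector cells. Ahr is a ligand-activated receptor that senses small molecules at barrier surfaces and helps lymphocytes persist there.

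Of the 77 regions, 6 passed the threshold for a call, an adjusted p below 0.05 from limma over all regions and a change of at least 3-fold, in at least 1 of the 3 pairwise comparisons. Their central 300 bases are shown because every region called at these genes is among them, read from the plus strand of GRCm38.p6. Letters in capitals mark matches on either strand to the 9 short motifs that are spelled out after the sequences. No match overlapped another.
Prdm1, chr10:44429487-44429786, 7.5 kb past the gene end: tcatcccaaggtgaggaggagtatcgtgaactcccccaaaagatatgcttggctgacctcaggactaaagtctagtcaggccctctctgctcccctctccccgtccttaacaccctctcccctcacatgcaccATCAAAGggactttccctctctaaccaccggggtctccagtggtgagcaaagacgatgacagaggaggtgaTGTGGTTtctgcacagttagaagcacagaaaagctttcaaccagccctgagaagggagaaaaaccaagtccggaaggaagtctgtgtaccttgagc
Zfp683, chr4:134047595-134047894, 6.1 kb upstream: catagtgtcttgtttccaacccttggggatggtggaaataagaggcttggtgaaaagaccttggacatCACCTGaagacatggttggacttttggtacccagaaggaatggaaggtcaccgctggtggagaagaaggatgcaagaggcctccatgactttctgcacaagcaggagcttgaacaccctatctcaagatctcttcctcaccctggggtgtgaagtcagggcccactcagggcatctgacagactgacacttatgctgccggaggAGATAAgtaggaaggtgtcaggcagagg
Bhlhe40, chr6:108672063-108672362, 5.3 kb past the gene end: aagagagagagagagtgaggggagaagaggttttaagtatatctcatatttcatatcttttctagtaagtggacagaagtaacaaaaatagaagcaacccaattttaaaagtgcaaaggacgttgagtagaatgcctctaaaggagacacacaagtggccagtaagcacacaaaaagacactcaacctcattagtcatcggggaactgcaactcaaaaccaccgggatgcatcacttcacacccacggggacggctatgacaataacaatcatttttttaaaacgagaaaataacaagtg
Zeb2, chr2:45017245-45017544, over a coding exon: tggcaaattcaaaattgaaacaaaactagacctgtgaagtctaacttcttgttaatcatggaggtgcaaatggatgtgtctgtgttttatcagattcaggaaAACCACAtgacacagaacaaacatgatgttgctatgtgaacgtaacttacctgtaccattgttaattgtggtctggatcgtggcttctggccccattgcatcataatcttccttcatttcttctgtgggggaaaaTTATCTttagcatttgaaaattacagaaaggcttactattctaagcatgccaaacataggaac
Zeb2, chr2:45019063-45019362, intron: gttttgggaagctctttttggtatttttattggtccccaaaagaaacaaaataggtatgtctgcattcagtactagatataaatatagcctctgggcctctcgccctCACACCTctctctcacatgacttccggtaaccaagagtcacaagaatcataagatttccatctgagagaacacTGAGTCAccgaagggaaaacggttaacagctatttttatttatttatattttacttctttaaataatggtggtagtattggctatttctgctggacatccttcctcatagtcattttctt
Zeb2, chr2:45047168-45047467, intron: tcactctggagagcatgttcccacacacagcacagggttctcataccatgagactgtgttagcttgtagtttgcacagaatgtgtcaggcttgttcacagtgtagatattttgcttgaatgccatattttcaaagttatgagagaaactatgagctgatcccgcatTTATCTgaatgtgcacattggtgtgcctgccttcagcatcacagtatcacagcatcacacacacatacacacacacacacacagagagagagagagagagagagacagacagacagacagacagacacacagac

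The GATA motif AGATAA was found in 3 of these 6 windows, at Zfp683 and at 2 of the Zeb2 elements, in 15 of the 77 members and in 15.2% of the central windows of all regions. The Runx motif AACCACA was in 2 of the 6 (Prdm1 and the Zeb2 coding-exon element), in 7 members and in 11.0% of all windows. The windows also held 1 match each to CAGGTG, the E-box of Zeb factors and E proteins (Zfp683; 18 members; 22.1% of all windows), the T-box motif AGGTGTG (Zeb2; 7 members; 7.75%), the bZIP motif TGANTCA (Zeb2; 9 members; 13.0%) and the TCF motif ATCAAAG (Prdm1; 6 members; 5.50%). The Blimp-1 type motif GAAAGTG was in 0 of the 6 called windows, in 4 members and in 5.85% of all windows. CACGTG, an E-box bound by Bhlhe40, was in 0 of the 6, in 3 members and in 5.28% of all windows, and the AHR element TNGCGTG was in 0 of the 6, in 3 members and in 3.55%. The Bhlhe40 window held no match to any of the 9 motifs.

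All 6 called elements had higher means in both lung populations than in LN IL-4+ cells, and none held a transcription start of its gene. In lung IL-4+ against LN IL-4+ cells, 3 of the 77 members were called higher and 0 lower, where 1.05% of all regions were called higher and 0.695% lower. At an adjusted p below 0.05 without the fold minimum, 7 members were higher and 0 lower (1.88% and 1.05% of all regions), and at an unadjusted p below 0.05 there were 26 higher and 2 lower (8.82% and 7.38%). The median log2 difference was 0.48 over the members and -0.03 over all regions, with 56 of the 77 positive. The libraries did not overlap at 34 members that were higher and 5 that were lower in lung IL-4+ cells, against 13.6% and 14.3% of all regions.

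In lung IFNγ+ against LN IL-4+ cells, 5 members were called higher and 0 lower (2.17% and 0.862% of all regions). The adjusted p alone gave 8 higher and 0 lower (3.03% and 1.16%), and the unadjusted p gave 27 and 3 (10.7% and 7.81%). Libraries did not overlap at 43 higher and 8 lower members (26.5% and 27.2%). The median was 0.46 over the members and -0.03 over all regions. In lung IL-4+ against lung IFNγ+ cells, 0 members were called higher and 1 lower (0.108% and 0.387% of all regions), with 0 higher and 7 lower at an unadjusted p below 0.05 (6.36% and 8.45%). The member called lower was also the one below an adjusted p of 0.05, which 0.151% of all regions passed as higher and 0.513% as lower. Libraries did not overlap at 12 higher and 20 lower members (19.4% and 21.2% of all regions). Here the median was -0.12 over the members and -0.01 over all regions. The 3 comparisons share libraries, so their counts are not independent of each other.

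**Figure D1:**
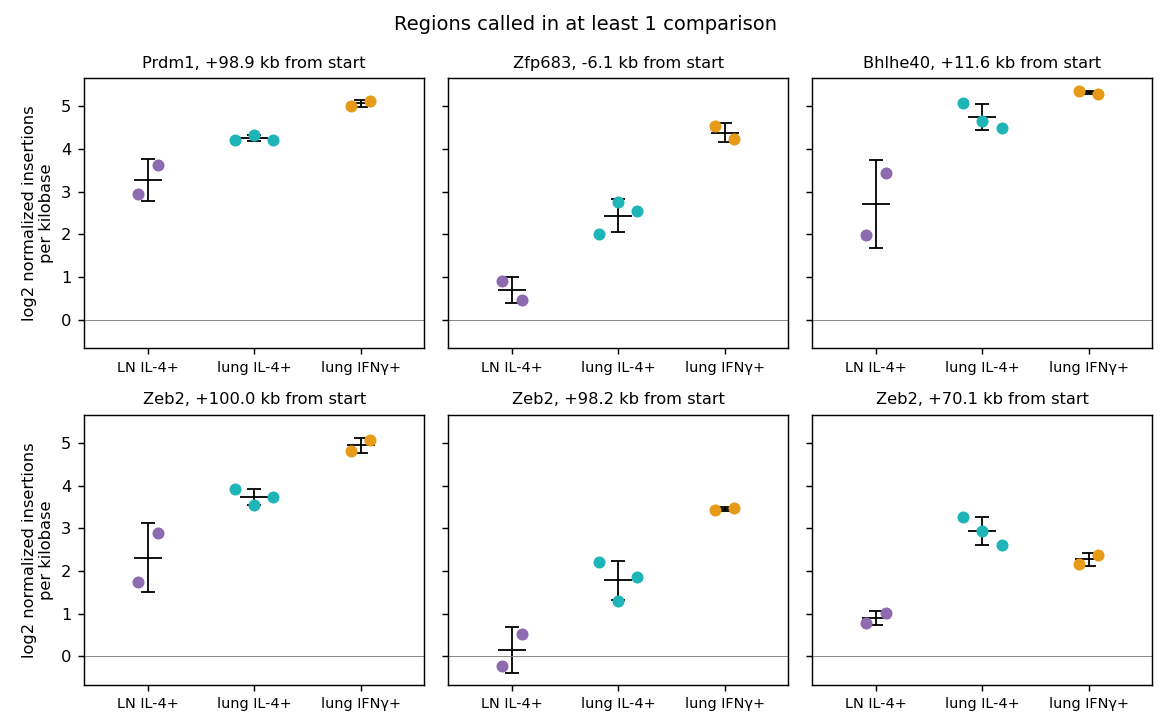
Log2 normalized insertions per kilobase of the 6 called regions, titled by gene and distance from the gene start. Each point is a library, horizontal bars are population means and error bars are 1 SD (n = 2, 3 and 2 libraries). Lung IFNγ+ libraries were above both LN IL-4+ libraries in all 6 regions, and lung IL-4+ libraries lay between them in all but the Zeb2 element at 70.1 kb, where they were highest.

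By the threshold of a mean density of 5, 49 of the 77 members (63.6%) were accessible in at least 1 population, as were 58.2% of all regions. At the members, 30 were accessible in LN IL-4+, 44 in lung IL-4+ and 39 in lung IFNγ+ cells. Over all 113820 regions the numbers were 49717, 49680 and 48851. The larger number in lung IL-4+ than in LN IL-4+ cells came mostly from Zeb2, with 15 against 7 of 31 regions, and from Prdm1, with 15 against 11 of 23. Of the Zeb2 regions 1, and of the Prdm1 regions 0, were called in this comparison. A small change can cross the threshold, as at the Prdm1 region 5.1 kb past the gene end, with mean densities of 4.45 and 5.54 (limma adjusted p = 0.697). Id2 had 5 of 6 and Ahr 3 of 7 accessible regions in each of the 3 populations.

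To give 1 value per gene, normalized insertions were summed over the regions of a locus and fitted in the same way with limma over 17044 protein-coding genes. In lung IL-4+ against LN IL-4+ cells, 1 of the 6 members was called higher at an adjusted p below 0.05 and 0 lower, where 0.663% of all loci were called higher and 0.417% lower. In lung IFNγ+ against LN IL-4+ cells the counts were again 1 and 0 (1.33% and 0.81% of all loci), and in lung IL-4+ against lung IFNγ+ cells 0 and 0 (0% and 0.0528%). The called locus was that of Bhlhe40 both times. At an unadjusted p below 0.05 there were 3 higher and 0 lower in each comparison with LN IL-4+ cells, against 4.88% and 9.03% of all loci for lung IL-4+ and 6.83% and 9.5% for lung IFNγ+ cells, and 0 of either kind between the lung populations (5.69% and 9.22%). The library sums did not overlap at 3 higher and 0 lower members in lung IL-4+ against LN IL-4+ cells (7.88% and 17.7% of all loci), at 4 higher and 1 lower in lung IFNγ+ against LN IL-4+ cells (21.2% and 30.2%) and at 0 higher and 1 lower between the lung populations (24.8% and 28.8%). Per kilobase of region, mean densities in LN IL-4+ cells, then lung IL-4+ cells, then lung IFNγ+ cells were 12.9, 24.6 and 24.3 at Bhlhe40, 9.31, 11.0 and 11.2 at Prdm1 and 4.49, 6.45 and 7 at Zeb2. They were 14.1, 14.7 and 13.1 at Id2, 12.2, 13.1 and 15.7 at Zfp683 and 11.6, 11.1 and 11.9 at Ahr. Bhlhe40 was highest in both lung populations and Zeb2 lowest in all 3, each by more than the SD of either neighbour. In LN IL-4+ cells the order was Id2, Bhlhe40, Zfp683 and Ahr, neighbours among which differed by less than the larger of their SDs, then Prdm1 and Zeb2. In lung IL-4+ cells Id2, Zfp683, Ahr and Prdm1 followed Bhlhe40, again with neighbours closer than the larger SD, and in lung IFNγ+ cells Zfp683 followed Bhlhe40 and stood above Id2 by more than the SD.

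**Figure D2:**
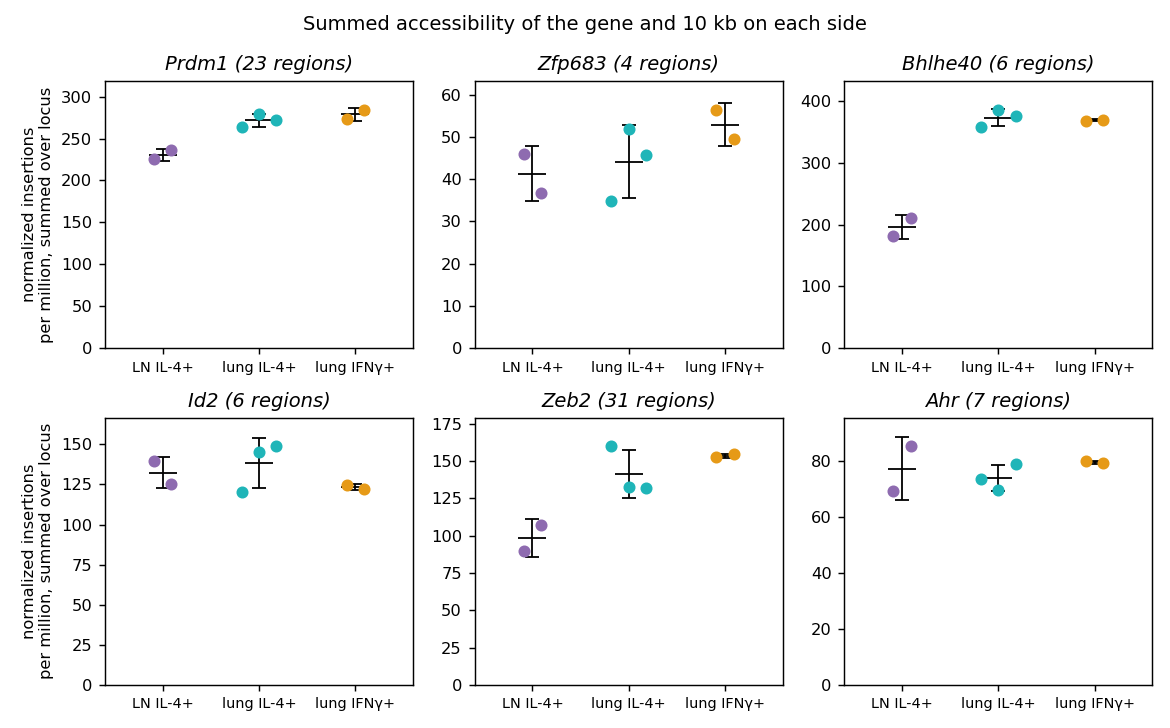
Normalized insertions summed over all regions of each locus, by population. Points are libraries, horizontal bars means and error bars 1 SD, and the vertical scale starts at 0 and differs between genes. The Bhlhe40 sums of the 5 lung libraries are 358 or more, those of the LN IL-4+ cells are 210.4 or less, while the populations overlap or nearly meet at Id2 and Ahr.

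Prdm1 (chr10:44437177-44528501, minus strand) is the gene of Blimp-1. Its summed accessibility was 225.6 and 235.9 in LN IL-4+, 263.9, 279 and 271.7 in lung IL-4+ and 273.3 and 284.4 in lung IFNγ+ libraries. All lung libraries were above both LN IL-4+ libraries, but the differences of 0.23 (SE 0.10) for lung IL-4+ and 0.27 (SE 0.11) for lung IFNγ+ cells on the log2 scale did not pass (limma adjusted p = 0.330 and 0.261). Permuting the libraries exactly gave two-sided p-values of 0.1 with 3 against 2 and 0.33 with 2 against 2 libraries, each the smallest the design allows.

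The only called Prdm1 region was the element 7.5 kb past the gene end (chr10:44429381-44429891). Its log2 density was 2.93 and 3.62 in LN IL-4+, 4.21, 4.33 and 4.22 in lung IL-4+ and 5.01 and 5.12 in lung IFNγ+ libraries. The 3 populations did not overlap, and lung IFNγ+ cells were 3.46-fold above LN IL-4+ cells (log2 1.79, SE 0.25, limma adjusted p = 0.00496, 1.45 within the wide libraries). Lung IL-4+ cells were between, at a difference of 0.97 (adjusted p = 0.0509) from LN IL-4+ and of -0.82 (adjusted p = 0.159) from lung IFNγ+ cells. The call was lost on the log2(density + 5) scale (1.38, under 3-fold), without LN IL-4+ replicate 1, where the difference was 1.45 and under 3-fold, and without either lung IFNγ+ library (adjusted p = 0.0852 without replicate 1 and 0.0846 without replicate 2). A second element, in an intron 82.2 kb from the start and named after its values were seen, passed the adjusted p without reaching 3-fold, with log2 densities of 2.11 and 2.75 in LN IL-4+, 3.73, 3.90 and 3.51 in lung IL-4+ and 3.77 and 4.11 in lung IFNγ+ libraries. It was higher by 1.28 in lung IL-4+ (adjusted p = 0.0354) and by 1.51 in lung IFNγ+ cells (adjusted p = 0.0211).

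The starts of Prdm1 transcripts lay in 2 regions that behaved differently in value but were not called. The region of 3506 bp at the gene start had log2 densities of 3.98 and 3.85 in LN IL-4+, 3.61 to 3.84 in lung IL-4+ and 3.57 and 3.65 in lung IFNγ+ libraries. The region around the internal start at 70.4 kb had 3.90 and 4.24, then 4.67 to 4.77, then 4.74 and 4.76. Lung libraries were thus slightly below LN IL-4+ libraries at the first (differences of -0.19 and -0.31, adjusted p = 0.728 and 0.508) and above them at the internal start (0.64 and 0.69, adjusted p = 0.0987 and 0.0903). The densest Prdm1 region, in an intron 80.4 kb from the start, ranged from 4.30 to 4.89 over all libraries. The median difference over the 23 regions was 0.31 for lung IL-4+ and 0.37 for lung IFNγ+ against LN IL-4+ cells. Differences of the opposite sign reached -1.13 and -1.89 at a coding exon 86.9 kb from the start, a region singled out after its values were seen, where the LN IL-4+ libraries were far apart at 3.06 and 1.18 and the adjusted p were 0.506 and 0.236.

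Zfp683 (chr4:134053838-134058996, plus strand) is the gene of Hobit, the Blimp-1 homolog of resident lymphocytes, and no region of the table held its transcription start. Its upstream element (chr4:134047408-134048081, 6.1 kb before the start) was the only member called in all 3 comparisons. The log2 density was 0.91 and 0.47 in LN IL-4+, 2.00, 2.75 and 2.54 in lung IL-4+ and 4.54 and 4.22 in lung IFNγ+ libraries. In rebuilt insertions these were 56 and 39, then 93, 132 and 74, then 911 and 1278. The populations formed 3 steps without overlap. The element is nearly closed in LN IL-4+ cells, with a mean density of 1.64, just past the accessibility threshold in lung IL-4+ cells at 5.52 and open in lung IFNγ+ cells at 20.9 normalized insertions per kilobase.

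Lung IFNγ+ cells exceeded LN IL-4+ cells 12.9-fold at this element (log2 3.69, SE 0.37, limma adjusted p = 0.00158), and the difference was 3.91 within the wide libraries. Lung IL-4+ cells were 3.34-fold above LN IL-4+ cells (1.74, SE 0.34, adjusted p = 0.0257), at 1.73 within the narrow and 1.53 within the wide libraries. They were 3.86-fold below lung IFNγ+ cells (-1.95, SE 0.34, adjusted p = 0.0388, -2.37 within the wide libraries). The folds against the low LN IL-4+ values depend on the pseudocount, and on the log2(density + 1) and log2(density + 5) scales the first difference was 3.05 and 1.96. The lung IL-4+ call held in 7 of 17 other settings and was lost on both of these scales (1.29, under 3-fold, and 0.66, adjusted p = 0.0805), with only the 2 populations fitted (adjusted p = 0.147) and with voom on rebuilt counts (2.16, adjusted p = 0.154). The call between the lung populations was lost on the log2(density + 5) scale (-1.30, under 3-fold). With 1 library left out, the first call was lost only without lung IFNγ+ replicate 1 (3.53, adjusted p = 0.0613). The lung IL-4+ call was lost without LN IL-4+ replicate 2 (1.52, adjusted p = 0.0608), lung IL-4+ replicate 2 (1.58, 0.119) or 3 (1.69, 0.0733), and either lung IFNγ+ replicate, which enter through the shared spread (1.74, 0.0930 and 0.0907). The call between the lung populations was lost without lung IL-4+ replicate 2 (-2.11, adjusted p = 0.133) or 3 (-2.0, 0.119) and without lung IFNγ+ replicate 1 (-1.79, 0.893) or 2 (-2.10, 0.439).

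The other 3 Zfp683 regions were not called. At 6.1 kb past the start, the log2 density was 1.67 and 1.64 in LN IL-4+, 1.71, 3.02 and 1.56 in lung IL-4+ and 3.45 and 3.17 in lung IFNγ+ libraries, a difference of 1.65 between the outer populations (limma adjusted p = 0.0915). This region, singled out after its values were seen, showed the same order of population means as the upstream element. The densest region, 3.1 kb past the gene end and within the neighbouring gene Crybg2, had 4.00 to 4.43 over all libraries and held 53.3% of the locus sum. The sums of 46 and 36.7 in LN IL-4+, 34.9, 51.9 and 45.7 in lung IL-4+ and 56.5 and 49.4 in lung IFNγ+ libraries overlapped between the IL-4+ populations (limma adjusted p = 0.900), and lung IFNγ+ cells differed from LN IL-4+ cells by 0.36 (adjusted p = 0.431).

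Bhlhe40 (chr6:108660629-108666925, plus strand), the repressor linked to cytokine output, had the largest change of the 6 loci against LN IL-4+ cells. Its sums were 182.1 and 210.4 in LN IL-4+, 358, 386.4 and 376.6 in lung IL-4+ and 368.1 and 370.1 in lung IFNγ+ libraries. This gave means of 196 ± 20.1 (SD, n = 2), 374 ± 14.4 (SD, n = 3) and 369 ± 1.40 (SD, n = 2) normalized insertions. Lung IL-4+ cells were 1.91-fold above LN IL-4+ cells (log2 0.93, SE 0.11, limma adjusted p = 0.0173), and lung IFNγ+ cells 1.89-fold (0.91, SE 0.12, adjusted p = 0.0145). The first difference was 1.07 within the narrow and 0.77 within the wide libraries, and the second 0.81 within the wide ones.

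The lung populations differed at the Bhlhe40 locus by 0.02 (SE 0.11, limma adjusted p = 0.935). All 5 lung libraries lay above both LN IL-4+ libraries, at the smallest exact two-sided permutation p of 0.1 and 0.33 that 3 against 2 and 2 against 2 libraries allow. Ranked by the log2 difference, Bhlhe40 was at place 270 of 17044 for lung IL-4+ and at place 553 for lung IFNγ+ against LN IL-4+ cells. With only the 2 populations fitted, neither call passed (adjusted p = 0.0870 and 0.114). The lung IL-4+ call was lost without lung IL-4+ replicate 2 (0.91, adjusted p = 0.141) or 3 (0.93, 0.0926) and without lung IFNγ+ replicate 1 (0.0839) or 2 (0.0819), the differences without the latter being 0.93. The lung IFNγ+ call was lost without lung IL-4+ replicate 2 (0.91, adjusted p = 0.0585) and without lung IFNγ+ replicate 1 (0.92, 0.247) or 2 (0.91, 0.210).

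All 6 Bhlhe40 regions had positive differences from LN IL-4+ cells in both lung populations, from 0.78 to 2.04 for lung IL-4+ and from 0.78 to 2.61 for lung IFNγ+ cells. The broad region of 8028 bp that holds the start and most of the gene, and also a start of the neighbouring transcript 0610040F04Rik, carried 78.4% of the locus sum. Its log2 density was 4.21 and 4.51 in LN IL-4+, 5.14, 5.16 and 5.10 in lung IL-4+ and 5.18 and 5.21 in lung IFNγ+ libraries. Lung libraries stood above LN IL-4+ libraries without overlap, and the differences of 0.78 and 0.84 passed the adjusted p (limma, 0.0379 and 0.0323) but not the 3-fold minimum. The neighbouring region, which overlaps the last exon 8.6 kb from the start, had 2.56 and 1.78 in LN IL-4+, 3.29, 3.94 and 4.02 in lung IL-4+ and 3.15 and 3.05 in lung IFNγ+ libraries. It was higher by 1.58 in lung IL-4+ cells (adjusted p = 0.0307) and differed by 0.93 in lung IFNγ+ cells (adjusted p = 0.195).

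The called Bhlhe40 element lay 5.3 kb past the gene end (chr6:108671894-108672530). Its log2 density was 1.98 and 3.43 in LN IL-4+, 5.08, 4.66 and 4.49 in lung IL-4+ and 5.35 and 5.29 in lung IFNγ+ libraries. The LN IL-4+ libraries were far apart, yet both were below every lung library. Lung IL-4+ cells were 4.10-fold higher (2.04, SE 0.36, limma adjusted p = 0.0172, with 2.59 within the narrow and 1.64 within the wide libraries) and lung IFNγ+ cells 6.12-fold higher (2.61, SE 0.39, adjusted p = 0.00658, with 1.89 within the wide libraries). The lung populations differed by -0.58 (adjusted p = 0.455). The difference of lung IL-4+ cells fell short of 3-fold on the log2(density + 5) scale, at 1.42, and without LN IL-4+ replicate 1, at 1.31. It also lost the call without lung IL-4+ replicate 2 (2.08, adjusted p = 0.0910) or 3 (2.16, 0.0503), and the lung IFNγ+ call was lost without lung IFNγ+ replicate 1 (2.59, 0.0864) or 2 (2.64, 0.0697).

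**Figure D3:**
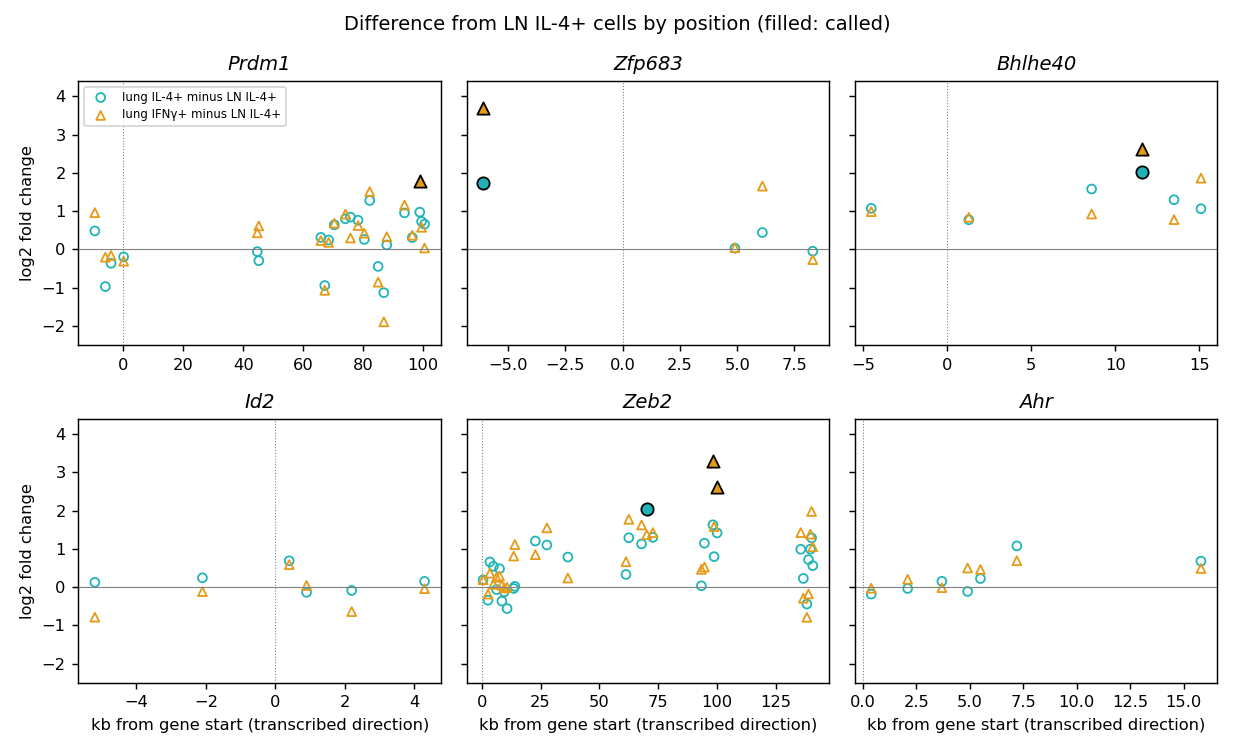
Log2 fold change of each of the 77 regions against LN IL-4+ cells, by distance in kilobases from the gene start along the transcribed direction. Circles are lung IL-4+ and triangles lung IFNγ+ cells, and filled symbols are called. All Bhlhe40 symbols lie above 0, the filled Zeb2 symbols lie between 70.1 and 100 kb from the start, and no Id2 or Ahr symbol is filled.

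Id2 (chr12:25093799-25097140, minus strand), which restrains E proteins, had high accessibility in all populations, and none of its differences between them passed the test. Its densest region, at 0.9 kb from the start, held the highest log2 density of all members, with 6.12 and 6.53 in LN IL-4+, 6.26, 6.11 and 6.19 in lung IL-4+ and 6.39 and 6.34 in lung IFNγ+ libraries. The populations overlapped between LN and lung, and the differences from LN IL-4+ cells were -0.14 (SE 0.16, limma adjusted p = 0.747) and 0.04 (SE 0.17, adjusted p = 0.921). The upstream region that holds the main start had 2.65 and 3.36 in LN IL-4+ and 2.73 to 3.55 in lung libraries. The locus sums were 139.4 and 125.4 in LN IL-4+, 120.4, 145.5 and 148.8 in lung IL-4+ and 124.6 and 122.3 in lung IFNγ+ libraries, with differences of 0.06 (SE 0.13, adjusted p = 0.893) and -0.10 (SE 0.14, adjusted p = 0.718) from LN IL-4+ cells. Of the 6 Id2 regions, 0 were called or passed the adjusted p in any of the 3 comparisons. At an unadjusted p below 0.05, 1 region had higher values in the lung IL-4+ libraries than in those of the LN, as did 8.82% of all regions. In the other comparisons 0 passed.

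Zeb2 (chr2:44983632-45117395, minus strand), the T-bet partner of terminal effector cells, had the most regions and 3 of the 6 called ones, all far inside the gene. The element over a coding exon 100 kb from the start (chr2:45017167-45017622) had log2 densities of 1.74 and 2.89 in LN IL-4+, 3.91, 3.54 and 3.74 in lung IL-4+ and 4.81 and 5.07 in lung IFNγ+ libraries. The intronic element 98.2 kb from the start (chr2:45019000-45019424) had -0.22 and 0.53, then 2.20, 1.29 and 1.85, then 3.42 and 3.48. Both stepped up from LN IL-4+ through lung IL-4+ to lung IFNγ+ cells without overlap. Lung IFNγ+ cells were 6.18-fold above LN IL-4+ cells at the first (2.63, SE 0.35, limma adjusted p = 0.00416, 2.05 within the wide libraries) and 9.84-fold at the second (3.30, SE 0.48, adjusted p = 0.00554, 2.92 within the wide libraries). Lung IL-4+ cells differed from LN IL-4+ cells by 1.42 (adjusted p = 0.0444, under 3-fold) and 1.63 (adjusted p = 0.0794), and from lung IFNγ+ cells by -1.21 (adjusted p = 0.135) and -1.67 (adjusted p = 0.130). On the log2(density + 1) and log2(density + 5) scales the difference of lung IFNγ+ from LN IL-4+ cells at the second element was 2.49 and 1.38, the latter under 3-fold, and the LN IL-4+ libraries had 24 and 22 rebuilt insertions there. Both calls were lost without lung IFNγ+ replicate 1 (2.75, adjusted p = 0.0637, and 3.33, 0.119) or 2 (2.50, 0.0692, and 3.27, 0.108).

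The third called Zeb2 element had another order of populations. In this intronic region 70.1 kb from the start (chr2:45046822-45047813), the log2 density was 0.78 and 1.02 in LN IL-4+, 3.26, 2.94 and 2.62 in lung IL-4+ and 2.17 and 2.38 in lung IFNγ+ libraries. Lung IL-4+ libraries were highest, without overlap with either other population. They were 4.10-fold above LN IL-4+ cells (2.04, SE 0.35, limma adjusted p = 0.0149, with 2.00 within the narrow and 2.24 within the wide libraries) and 0.67 above lung IFNγ+ cells (adjusted p = 0.388), which in turn differed from LN IL-4+ cells by 1.37 (adjusted p = 0.0778). The call was lost on the log2(density + 5) scale (0.89, under 3-fold), with only the 2 populations fitted (adjusted p = 0.0528), without lung IL-4+ replicate 2 (2.04, adjusted p = 0.0808) and, by a narrow margin, without lung IFNγ+ replicate 2 (2.04, adjusted p just above 0.05). The intronic region at 72.7 kb passed the adjusted p in lung IFNγ+ against LN IL-4+ cells (1.42, 0.0493) below the 3-fold minimum.

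Zeb2 transcript starts lay in 7 regions, none of them called, and 3 of these also held a start of another annotated transcript. At the gene start, the log2 density was 2.58 and 2.44 in LN IL-4+, 2.46, 2.90 and 2.73 in lung IL-4+ and 2.74 and 2.66 in lung IFNγ+ libraries, so that the IL-4+ populations overlapped. The start region with the highest density, 7.6 kb from the gene start, had 3.62 and 3.98, then 4.41, 4.33 and 4.11, then 4.04 and 4.14. The densest region of the locus lay 1.8 kb past the gene end, at 2.74 and 4.44 in LN IL-4+, 4.28 to 4.96 in lung IL-4+ and 5.08 and 4.95 in lung IFNγ+ libraries, and the SD of 1.21 between the LN IL-4+ libraries exceeded the difference of 0.99 from lung IL-4+ cells (limma adjusted p = 0.260). Over the 31 regions, the median difference from LN IL-4+ cells was 0.66 in lung IL-4+ and 0.66 in lung IFNγ+ cells. The sums of 89.5 and 107.3 in LN IL-4+, 159.9, 132.4 and 131.9 in lung IL-4+ and 152.5 and 154.6 in lung IFNγ+ libraries did not overlap between LN and lung, but the differences of 0.52 (SE 0.13, adjusted p = 0.134) and 0.65 (SE 0.15, adjusted p = 0.0749) did not pass.

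Ahr (chr12:35497974-35535038, minus strand), the ligand-activated receptor, was open at its start in all populations. The start region had log2 densities of 5.04 and 5.44 in LN IL-4+, 5.16, 4.92 and 5.09 in lung IL-4+ and 5.24 and 5.18 in lung IFNγ+ libraries, and it held 62.3% of the locus sum. LN IL-4+ and lung libraries overlapped, with differences of -0.18 (SE 0.18, limma adjusted p = 0.694) and -0.03 (SE 0.20, adjusted p = 0.953). The other 6 regions were intronic and had mean densities of 1.98 to 8.04. The locus sums were 69.4 and 85.3, then 73.5, 69.6 and 79.0, then 80.0 and 79.3, and differed from LN IL-4+ cells by -0.06 (SE 0.13, adjusted p = 0.895) in lung IL-4+ and by 0.05 (SE 0.14, adjusted p = 0.868) in lung IFNγ+ cells. Of the 7 regions, 0 were called or passed the adjusted p in any comparison. By the unadjusted p below 0.05, 1 had higher values in the lung IL-4+ libraries than in those of the LN, as did 8.82% of all regions. In the other comparisons 0 passed.

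**Figure D4:**
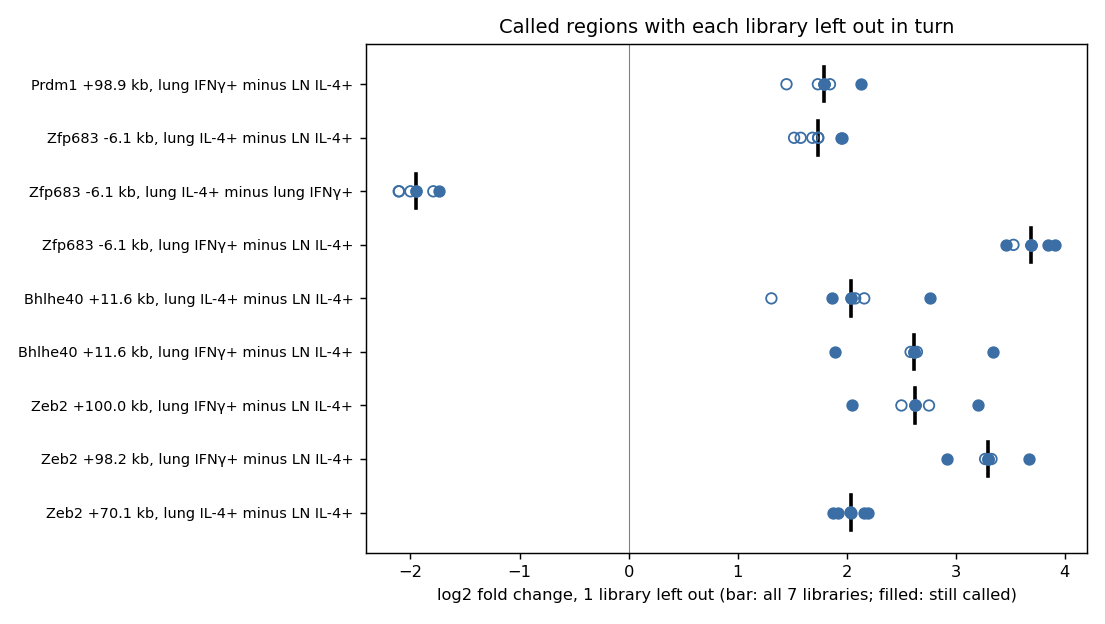
Log2 fold change of each called region in each comparison that called it, with each of the 7 libraries left out in turn. Vertical bars are the values with all 7 libraries, filled points kept the call and open points lost it. Every point keeps the sign of its bar, while 2 of 7 points remained called for the Zfp683 element in lung IL-4+ against LN IL-4+ cells and 6 of 7 for the same element in lung IFNγ+ against LN IL-4+ cells.

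Genes that these factors are known to act on or with were described by the same counts. Of 10 residency and egress genes, all measured, 1 locus was called higher in lung IL-4+ cells against those of the LN, that of Rgs1 (log2 1.38, SE 0.16, limma adjusted p = 0.0173), a regulator that dampens egress signals. At the level of regions, 3 of 127 were called higher and 0 lower, beside the 1.05% and 0.695% of all regions and the 0.663% of loci called higher. In lung IFNγ+ cells 8 regions were called higher and 1 lower, beside 2.17% and 0.862% of all regions, and 2 loci were called higher, beside 1.33% of all loci, Rgs1 (0.97, adjusted p = 0.0370) and Itga1 (0.93, adjusted p = 0.0406), an integrin chain that binds collagen. The list's medians were 0.24 and 0.20 against LN IL-4+ cells, and the medians over all loci -0.09 and -0.06. The egress genes Klf2, S1pr1 and S1pr5 differed by 0.05, 0.21 and -0.09 between lung IL-4+ and LN IL-4+ cells, and none of them passed.

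Of 8 genes that Blimp-1 is known to repress, 0 loci were called in lung IL-4+ against LN IL-4+ cells (0.663% of all loci higher, 0.417% lower). In lung IFNγ+ against LN IL-4+ cells 1 was called lower, that of the B cell factor Pax5 (log2 -1.31, limma adjusted p = 0.0375), beside 0.81% of all loci. The medians were -0.08 and -0.14. Pax5 was also the only B cell marker with a start region, at 4.87 to 6.16 in LN IL-4+ and 0.898 to 1.43 in lung IFNγ+ libraries. The part of B cells in its difference was not tested. Of the 75 regions of these 8 genes, 0 were called in lung IL-4+ cells (1.05% of all regions higher, 0.695% lower). In lung IFNγ+ cells 0 were called higher and 2 lower, 1 at Bcl6 and 1 at Pax5, beside 2.17% and 0.862% of all regions. At an unadjusted p below 0.05, 0 of these loci were higher and 1 lower in lung IL-4+ cells (4.88% and 9.03% of all loci). In lung IFNγ+ cells 0 were higher and 3 lower (6.83% and 9.5% of all loci). Of 6 AHR target genes, 0 loci and 0 of 48 regions were called in any comparison, with medians of -0.03 and -0.06 against LN IL-4+ cells. The unadjusted p gave 1 lower locus in lung IL-4+ against LN IL-4+ cells, beside 9.03% of all loci, and 0 elsewhere. Of 10 partners and relatives, 1 locus was called, that of the Bhlhe40 paralog Bhlhe41. Bhlhe41 was lower in lung IFNγ+ cells than in the LN population (log2 -0.83, SE 0.16, limma adjusted p = 0.0433), beside 0.81% of all loci, while Bhlhe40 was higher. In the same list, 4 of 148 regions were called higher in lung IL-4+ cells against those of the LN, 3 at Runx3 and 1 at Tbx21, and 2 lower, both at Tcf12, which encodes an E protein (1.05% and 0.695% of all regions). In lung IFNγ+ cells 5 of them were called higher, 2 at Runx3 and 3 at Tbx21, and 3 lower, 2 at Tcf12 and 1 at Zeb1 (2.17% and 0.862% of all regions). Between the lung populations, limma called 0 loci of the 4 lists (0% of all loci higher, 0.0528% lower). Ccr7 and S1pr1 are in both the residency and egress and the Blimp-1 list, and Ahrr is both a partner and an AHR target. The unadjusted p gave 2 residency and egress loci higher in lung IL-4+ cells, Rgs1 and Ccr7, and 1 lower, Itga1. It gave 1 partner higher, Bhlhe41, 1 Blimp-1 target higher, again Ccr7, and 0 AHR targets. Over all loci, 5.69% were higher and 9.22% lower by that measure.

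As a description over 7 libraries that share their populations and spread classes, the locus sums of 13316 genes were correlated with those of each member. The closest to Bhlhe40 were Amz2, Cd101 and Sgms1 (Pearson r = 0.994, 0.994 and 0.994), to Prdm1 Tnfrsf1b, Map2k5 and Rab4a (0.997, 0.988 and 0.985) and to Zeb2 Swap70, Rcbtb2 and C130032M10Rik (0.995, 0.995 and 0.986). For Id2 they were Tmem248, Dcaf11 and Msl2 (0.997, 0.996 and 0.996), for Zfp683 Tmem65, Zfyve28 and Papola (0.973, 0.970 and 0.968) and for Ahr St8sia6, A430005L14Rik and Dydc2 (0.948, 0.947 and 0.945). Among the members themselves, Bhlhe40 ran most alike with Prdm1 (0.974) and Zeb2 (0.905), and with Id2 at -0.01.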

How the data were processed

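Reads were aligned by the authors to GRCm38/mm10 with Bowtie2 2.3.2. The authors then called peak summits per replicate with MACS2 2.1.1, merged regions around them, counted transposase insertions and normalized them with voom of limma 3.38.3. The deposited values are log2 normalized insertions per kilobase for 113820 regions in 7 libraries. Library distributions nearly coincide, as after quantile normalization. All per-sample columns were used.

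Insertion counts were rebuilt as lower bounds from the rank of tied values (8 decimals). Members were found with GENCODE M21, and regions were fitted in R 4.3.3 with limma 3.58.1 (1 mean per population, eBayes with trend, Benjamini-Hochberg over all regions, no pseudocount or filter). Calls needed an adjusted p below 0.05 and 3-fold. Locus sums were fitted over 17044 genes and called by adjusted p alone. Figures used Python 3.11.15. On simulated data for lung IL-4+ against LN IL-4+ cells at the spread of the data, 15 of 100 regions changed by 2 (log2) and 23 of 100 changed by 3 were recovered, with 0 false calls. All others of the 113820 regions were left unchanged with normal noise, whereas 1191 higher and 791 lower regions were called in the data. The adjusted p depends on the share of regions changed, so these rates need not hold for the data.

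Named were all called regions, those that hold a start of the gene, the densest of each locus and the 3 genes most alike. Regions passing the adjusted p alone were added after their values were seen. Members, lists and motifs were chosen with earlier results of these data known. Alternatives covered pseudocounts, filters, scalings, populations fitted, replicate block, spread, weights, voom on rebuilt counts, fold minimum, window and each library left out.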

Additional observations from a re-analysis of the deposited data

How the results depend on the processing

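The direction of every called region was kept in every setting run. With all regions fitted as log2(density + 5), calls among members were 0 in lung IL-4+ against LN IL-4+ cells (from 3), 0 in lung IL-4+ against lung IFNγ+ cells (from 1) and 3 in lung IFNγ+ against LN IL-4+ cells (from 5). In the same order, the adjusted p alone gave 7, 1 and 8, and gene bodies alone 1, 0 and 2 of 53 regions. Windows of 25 kb gave 8 and 10 of 102 regions in the comparisons with LN IL-4+ cells, and a 2-fold minimum gave 6 in the first. Fitting only the 2 populations compared gave 1 and 2 in the first 2 comparisons. Array weights and voom on rebuilt counts each gave 2 between the lung populations, and a 4-fold minimum 0. With 1 library left out, the counts ranged from 0 to 6, 0 to 1 and 0 to 9. The share of all regions called is given above for the main setting and the adjusted p alone. Counts in the other settings have no such background here.

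The labels do not say that a replicate number marks a shared mouse or day. The deviations of same-numbered libraries correlated between -0.54 and 0.06, but with 2 libraries the deviations of a population mirror each other, and libraries of like spread went together (0.54 between replicate 2 of LN IL-4+ and replicate 1 of lung IL-4+ cells), so the check does not settle whether the libraries are paired. A replicate block left 0, 0 and 1 member regions and 0 and 0 loci called against LN IL-4+ cells.

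Of member loci, lung IL-4+ and lung IFNγ+ cells each had 1 called against LN IL-4+ cells. This became 0 and 0 with only the 2 populations fitted, 0 and 0 at a 2-fold and at a 4-fold minimum, and 3 and 3 with the spread of the library as a covariate, which added Zeb2 to both, Prdm1 to the first and Zfp683 to the second. Gene bodies alone gave 2 in lung IFNγ+ cells, with Zeb2. Left-out libraries gave 0 to 1 and 0 to 2, Zeb2 being called in the second without LN IL-4+ replicate 2 (0.78, adjusted p = 0.0173). Between the lung populations, array weights gave 3 calls against 0, namely Id2 (0.23), Zeb2 (-0.21) and Ahr (-0.18). The share of all loci called is given above for the main fit alone, so calls in these settings have no background here. Member loci whose libraries did not overlap, in either direction, numbered 3 in the first comparison, 5 as means of log2 densities and 3 to 4 with 1 library left out. Between the lung populations they numbered 1, and 1 to 4 with 1 library left out. In lung IFNγ+ against LN IL-4+ cells they numbered 5, of which 4 were higher and 1 lower, then 4 with gene bodies alone, 4 with windows of 25 kb and 5 to 6 with 1 library left out.

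The sign changed for loci that were not called. In lung IL-4+ against LN IL-4+ cells, Zfp683 gave -0.062 at 25 kb, and Ahr 0.011 after quantile normalization, 0.036 after median centring and 0.065 at 25 kb. With 1 library left out, Zfp683 ranged from -0.078 to 0.25, Id2 from -0.019 to 0.15 and Ahr from -0.21 to 0.091. Between the lung populations, Prdm1 gave 0.0060 after median centring, Bhlhe40 -0.18 after quantile normalization, -0.015 at 25 kb and -0.0074 to 0.048 with 1 library left out, and Id2 -0.023 and Zeb2 0.086 with the spread covariate. In lung IFNγ+ against LN IL-4+ cells, the spread covariate gave Id2 0.040 and Ahr -0.022, and Ahr ranged from -0.098 to 0.20 with 1 library left out. The causes were not tested. The fewest rebuilt insertions at a called element were the 24 and 22 of the LN IL-4+ libraries at the Zeb2 element 98.2 kb from the start, and rebuilt counts are lower bounds.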
